A study of Mus musculus with 23 samples.

Results

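The 10 genes followed here in the mouse ileum are the galanin receptor *Galr2* and 9 genes of the gut endocrine system. The 9 are the peptide hormone genes *Gcg*, *Pyy*, *Cck*, *Nts* and *Sct*, and *Chga*, *Chgb*, *Tph1* and *Neurod1*, which mark or maintain enteroendocrine cells. The 10 genes were taken by name from the array annotation. They were measured by 13 of the 56605 probes on the array, and 12 of the 13 were among the 37591 probes bright enough to be tested. *Galr2* was chosen by its measured signal, which was lower after PCN in both genotypes, so its response to PCN is described here without a test. The other 9 genes were listed for their role. They and the further gene lists below were chosen with earlier results of these data known.

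The 23 arrays each carried ileum RNA of 1 male mouse. Wild-type (WT) C57BL/6J mice and mice lacking the pregnane X receptor (*Pxr*-/-), a nuclear receptor that switches on drug-metabolising genes, received daily intraperitoneal injections of the rodent PXR ligand pregnenolone 16α-carbonitrile (PCN, 100 mg/kg in corn oil) or of corn oil alone (CONT) for 4 days. Tissue was taken in the fed state at ZT6, which was also 6 h after the final injection. Each of the WT CONT and both *Pxr*-/- groups had 6 arrays, and WT PCN had 5. WT mice were bought at 6 weeks of age and kept for 2 weeks before the experiment, whereas the *Pxr*-/- mice, backcrossed to C57Bl/6J, came from a colony bred in house for 10 years, and their age is not given. Genotype and origin of the mice therefore cannot be told apart, while the response to PCN was measured within each origin.

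Enteroendocrine cells are rare epithelial cells that sense nutrients, microbial products and bile acids and release peptide hormones or serotonin. In the distal gut, L cells make proglucagon, the source of GLP-1, together with peptide YY and often neurotensin, whereas enterochromaffin cells make serotonin and are rich in chromogranins. Galanin is a neuropeptide of enteric neurons, and its receptors are found on neurons, smooth muscle and epithelial cells. As whole ileum was measured, fewer cells of a type and less RNA per cell cannot be told apart.

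The *Galr2* signal rests on 1 probe, and the probes of the intestinal hormones *Pyy* and *Nts* read the stretch of mRNA where the prohormone is cut. These 3 probe sequences are shown 5′ to 3′ as the scanner files give them, with mm9 positions. Capitals mark a lysine codon followed by an arginine codon, the paired basic site at which prohormone convertases cleave. In *Pyy* the marked pair follows a glycine codon, the signal for amidation of the peptide. No capitals are used for *Galr2*, whose product is a receptor and not a prohormone.
Galr2, chr11:116144714-116144773, plus strand: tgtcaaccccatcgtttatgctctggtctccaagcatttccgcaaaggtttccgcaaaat
Pyy, chr11:101968311-101968370, minus strand: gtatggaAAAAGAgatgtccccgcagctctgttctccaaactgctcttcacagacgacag
Nts, chr10:101944967-101945026, minus strand: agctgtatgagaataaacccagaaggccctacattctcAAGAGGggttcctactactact
Each gene is given by its brightest tested probe unless another is named, on the scale of log2 signal after quantile normalization. All 10 of these probes were above background on all 23 arrays and none was saturated. Signals of different probes are not set against each other.

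The arrays were even in quality, with 62.7 to 68.8% of spots above background. All 7 ileum markers were above background on all arrays. The summed signal of the 9 epithelial markers had medians of 755377 in WT CONT, 706187 in WT PCN, 799270 in *Pxr*-/- CONT and 704862 in *Pxr*-/- PCN. It ran from 723080 to 820884 in WT CONT and 611458 to 754946 in WT PCN. In *Pxr*-/- mice it ran from 757568 to 889069 in CONT and 634643 to 741672 in PCN, without overlap. None of the 9 passed the call with PCN, where 1.05% of all genes did in WT mice and 1.47% in *Pxr*-/- mice. Of the 9, 8 had estimates below 0 with PCN in each genotype. Mast cell markers were higher with PCN, 3 of 10 called in WT mice and 4 of 10 in *Pxr*-/- mice (of all genes, 0.931% and 1.2% were called higher), and their summed signal ran from 1880 to 2427 in WT CONT, 2572 to 3877 in WT PCN, 1876 to 2621 in *Pxr*-/- CONT and 2944 to 4275 in *Pxr*-/- PCN. Of 8 smooth muscle genes, 3 were called higher in *Pxr*-/- mice. All these *Pxr*-/- calls except *Mcpt2* were lost under at least 1 alternative, with *Tagln* lost under 6 of 12 processing alternatives. Both mast cell counts include *Mcpt2*, which was dim in controls, averaging 5.30 in WT CONT and 5.55 in *Pxr*-/- CONT. Its detection by group was not examined, so its probe may have entered the test only through the PCN groups. The *Mcpt2* calls are therefore a description only. With the processing the *Mcpt2* difference moved between 0.67 and 2.35 in WT mice and between 0.61 and 1.82 in *Pxr*-/- mice. Single markers of colon (*B3gnt6*, 1.00 in WT mice), ileum (*Cubn*, 0.61 in *Pxr*-/- mice) and tuft cells (*Alox5ap*, 0.61 in *Pxr*-/- mice) also passed the call; *Cubn* was lost under 6 and *Alox5ap* under 4 of the 12. WT PCN replicates 2 and 3 had summed B cell signals of 13088 and 13233, against a WT CONT range of 1634 to 2283, and *Pxr*-/- PCN replicate 3 had a summed colon signal of 18893 against a group median of 4720. The part of these other cells in the differences below was not tested. The *Pxr* (*Nr1i2*) probe read 12.13 ± 0.23 in WT CONT and 11.72 ± 0.30 in *Pxr*-/- CONT (-0.41, adjusted p = 0.336, limma). Whether it lies in the deleted part is not given, so it does not check the genotype labels.

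*Galr2* was lower in the PCN arrays of both genotypes. In WT CONT the log2 signal had a lowest value of 8.30, a median of 8.34 and a highest value of 8.58 over 6 mice. The 5 WT PCN mice read 6.59, 7.02, 7.06, 7.30 and 7.36. All 5 thus lay below all 6 controls. In *Pxr*-/- CONT the lowest, median and highest values were 7.88, 8.29 and 8.55. The *Pxr*-/- PCN mice had 7.0, 7.26 and 8.04. Here 5 of 6 treated mice lay below all controls, and the remaining mouse, at 8.04, lay above the lowest control.

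**Figure D1:**
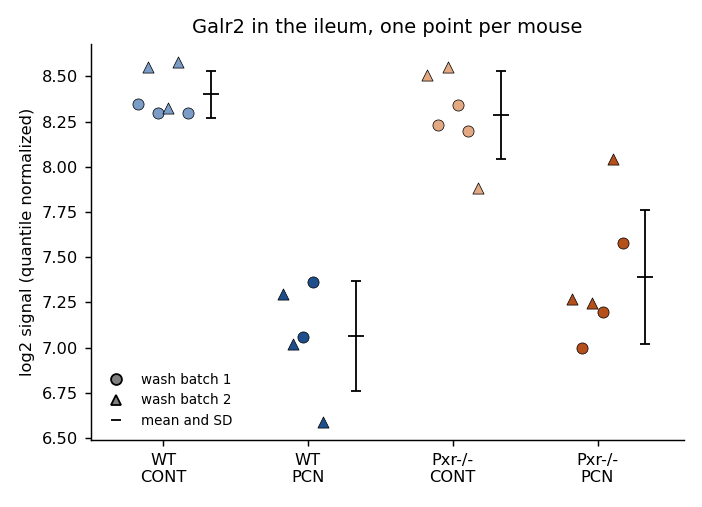
Log2 signal of *Galr2* (y axis, quantile normalized) in each of the 23 mice by group (x axis), with circles for wash batch 1, triangles for wash batch 2 and a bar for the mean ± SD of the group. The WT PCN points run from 6.59 to 7.36, below all WT CONT points, and 1 *Pxr*-/- PCN point at 8.04 overlaps the *Pxr*-/- CONT range.

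The group means of *Galr2* were 8.40 ± 0.13 (SD, n = 6) for WT mice given oil and 7.06 ± 0.31 (n = 5) for WT mice given PCN. *Pxr*-/- mice averaged 8.29 ± 0.24 (n = 6) with oil and 7.39 ± 0.37 (n = 6) with PCN. The fitted log2 difference between PCN and CONT was -1.34 (SE 0.16) in WT mice, a signal 2.54-fold lower. The *Pxr*-/- difference was -0.90 (SE 0.15), a signal 1.86-fold lower. As *Galr2* was chosen by these differences, their size may be overstated, and they are not tested against 0. Within wash batches 1 and 2, the WT difference was -1.11 and -1.52 and the *Pxr*-/- difference -1.0 and -0.79. Of all tested probes, 0.689% passed the call (adjusted p of at most 0.05 and a change above 1.5-fold) for PCN in WT mice and 0.939% in *Pxr*-/- mice, in either direction; 0.0904% and 0.223% passed it as lower. Groups that did not overlap, with PCN below CONT, were found for 1.16% of probes in WT mice and 1.05% in *Pxr*-/- mice. The difference between the PCN responses, *Pxr*-/- minus WT, came to 0.45 over all arrays, with 0.11 in wash batch 1 and 0.72 in wash batch 2. The normalized table that the authors deposited gave *Galr2* means of 8.40, 7.07, 8.29 and 7.39 in the same order of groups. Without the WT PCN arrays with high B cell markers the WT difference was -1.33, and without the *Pxr*-/- PCN array with high colon markers the *Pxr*-/- difference was -0.86.

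Genotype on its own was not accompanied by a called *Galr2* difference. Without PCN, *Pxr*-/- mice differed from WT mice by -0.12 (95% interval -0.43 to 0.20, adjusted p = 0.911, limma), and 3 of 6 *Pxr*-/- controls lay below all WT controls. Under PCN, *Galr2* was 0.33 higher in *Pxr*-/- mice (95% interval 0.0026 to 0.66, unadjusted p = 0.0484, adjusted p = 0.702, limma). That difference was 0.05 in wash batch 1 and 0.55 in wash batch 2. These arrays also served to choose *Galr2*, so the p-values of both genotype comparisons are descriptive. From high to low, the group means ran WT CONT, *Pxr*-/- CONT, *Pxr*-/- PCN and WT PCN.

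The other tested genes of the galanin family did not pass the call with PCN. *Gal*, which encodes galanin itself, was above background on all 23 arrays and differed with PCN by -0.00 in WT mice (SE 0.12, adjusted p = 0.999, limma) and by -0.01 in *Pxr*-/- mice (SE 0.11, adjusted p = 0.975). *Galr3*, the second galanin receptor seen on all arrays, differed by -0.06 (SE 0.09) and -0.10 (SE 0.09). *Galr1* was dim: its 2 probes were above background on 9 and 7 of the arrays. They gave -0.08 and -0.34 in WT mice and -0.32 and 0.03 in *Pxr*-/- mice, so the probes did not share a direction in *Pxr*-/- mice. *Spx*, which encodes spexin, a further ligand of galanin receptors, was above background on 15 arrays and differed by 0.01 and 0.05. *Galp*, the galanin-like peptide, was not above background on any array. By their brightest probe, 1.05% of all genes passed the call with PCN in WT mice and 1.47% in *Pxr*-/- mice.

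The genes around *Galr2* on chromosome 11 were read by 9 tested probes within 100 kb of its probe, belonging to *Ten1*, *Cdk3* (listed in the scanner files as Cdk3-ps), *Evpl*, *Srp68*, *Exoc7* and *Rnf157*. None of the 9 passed the call in any of the 5 comparisons. For PCN, 0.689% of all tested probes did so in WT mice and 0.939% in *Pxr*-/- mice. With PCN they ran from -0.21 for *Evpl* to 0.29 for a probe of *Rnf157* in WT mice, and from -0.19 for *Exoc7* to 0.06 for *Cdk3* in *Pxr*-/- mice. At an unadjusted p under 0.05 in limma, 2 of the 9 probes passed for PCN in WT mice and 2 in *Pxr*-/- mice, beside 14.9% and 23.2% of all genes. The nearest probe, of *Exoc7*, a subunit of the exocyst complex, lay 6569 bases away and differed by -0.05 in WT mice and -0.19 in *Pxr*-/- mice.

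None of the 5 hormone genes followed here passed the call after PCN, where 1.05% of all genes did in WT mice and 1.47% in *Pxr*-/- mice. None of the 9 members other than *Galr2* passed the call in any of the 5 comparisons by limma, and none had PCN and CONT groups that did not overlap, where 2.46% of probes had such groups in WT mice and 2.28% in *Pxr*-/- mice. For PCN, none of the 9 reached an unadjusted p under 0.05 in either genotype, where 14.9% of all genes did so in WT mice and 23.2% in *Pxr*-/- mice. Adjusted p ran from 0.489 to 0.905 in WT mice and from 0.265 to 0.864 in *Pxr*-/- mice. A p of that size does not show equal levels, so the width of each interval is given with the gene.

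**Figure D2:**
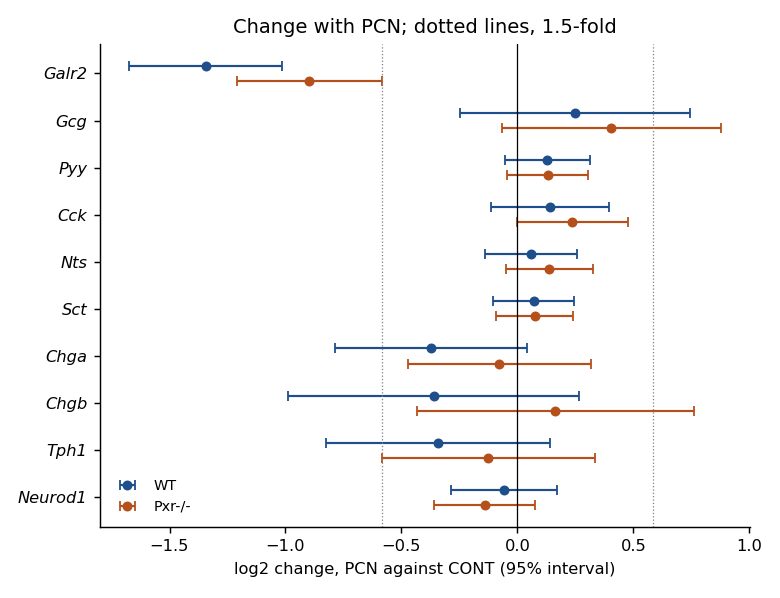
Fitted log2 change between PCN and CONT (x axis) for the 10 genes (y axis) in WT mice (blue) and *Pxr*-/- mice (orange); bars are 95% intervals and dotted lines mark a 1.5-fold change. The *Galr2* points sit at -1.34 and -0.90. *Galr2* was chosen by this response, so its bars are a description without a test and its change may be overstated. All other intervals include 0, the narrowest around *Sct* and the widest around *Chgb*.

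*Sct*, which encodes secretin, the hormone that stimulates bicarbonate secretion, had the narrowest intervals. Its group means were 15.49 ± 0.07 in WT CONT, 15.57 ± 0.19 in WT PCN, 15.41 ± 0.10 in *Pxr*-/- CONT and 15.48 ± 0.14 in *Pxr*-/- PCN. PCN differed from CONT by 0.07 (95% interval -0.10 to 0.25) in WT mice and 0.07 (95% interval -0.09 to 0.24) in *Pxr*-/- mice. A change of 1.5-fold in either direction, 0.58 on this scale, lies outside both intervals. Within wash batches 1 and 2 the sign turned, with 0.23 and -0.0355 in WT mice and -0.0118 and 0.16 in *Pxr*-/- mice. The genotype difference of *Sct* under PCN was -0.35 and 0.13 within the batches.

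*Pyy*, which encodes the appetite-suppressing peptide YY, read between 11.69 and 12.01 in WT CONT and between 11.85 and 12.09 in WT PCN. *Pxr*-/- mice read between 11.76 and 12.11 in CONT and between 11.72 and 12.20 in PCN. The differences were 0.13 (95% interval -0.05 to 0.31) and 0.13 (95% interval -0.04 to 0.31), with all 5 WT PCN mice and 5 of 6 *Pxr*-/- PCN mice above the mean of their controls. The *Pyy* groups overlapped in both genotypes.

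*Nts*, which encodes neurotensin, a hormone released in response to dietary fat, was the member with the clearest difference between genotypes, although it too missed the adjusted threshold. Its lowest, median and highest values were 13.27, 13.43 and 13.61 in WT CONT and 13.04, 13.17 and 13.34 in *Pxr*-/- CONT. All 6 *Pxr*-/- controls lay below the WT mean and 5 of 6 below every WT control. The difference was -0.26 (95% interval -0.45 to -0.07, adjusted p = 0.32, limma), and it was -0.29 and -0.23 within the wash batches. Under PCN all 6 *Pxr*-/- mice again lay below the WT mean, with a difference of -0.18 (95% interval -0.38 to 0.01, adjusted p = 0.76) that was -0.35 in wash batch 1 and -0.0356 in wash batch 2. PCN itself differed from CONT by 0.06 (95% interval -0.14 to 0.26) in WT mice and by 0.14 (95% interval -0.05 to 0.33) in *Pxr*-/- mice.

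*Cck*, which encodes cholecystokinin, the hormone of gallbladder contraction and satiety, averaged 10.46 ± 0.14 in WT CONT and 10.59 ± 0.18 in WT PCN. The *Pxr*-/- groups averaged 10.59 ± 0.25 in CONT and 10.83 ± 0.24 in PCN. The differences were 0.14 (95% interval -0.11 to 0.39) and 0.24 (95% interval -0.00 to 0.48, adjusted p = 0.265, limma), with 5 of 5 WT PCN and 5 of 6 *Pxr*-/- PCN mice above the mean of their controls. *Gcg*, which encodes proglucagon, had the largest positive estimates among the hormones and wide intervals. Its main probe averaged 11.86 ± 0.29 in WT CONT, 12.11 ± 0.47 in WT PCN, 11.76 ± 0.43 in *Pxr*-/- CONT and 12.17 ± 0.47 in *Pxr*-/- PCN. The differences were 0.25 (95% interval -0.25 to 0.74) and 0.40 (95% interval -0.07 to 0.88). The WT difference was 0.51 without both arrays with high B cell markers and 0.0516 without WT PCN replicate 4, and it was 0.49 and 0.0387 within the wash batches. A second, dimmer *Gcg* probe, at chr2:62318657-62318716 on mm9, gave 0.05 in WT mice and -0.14 in *Pxr*-/- mice, so in *Pxr*-/- mice the probes pointed in opposite directions.

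**Figure D3:**
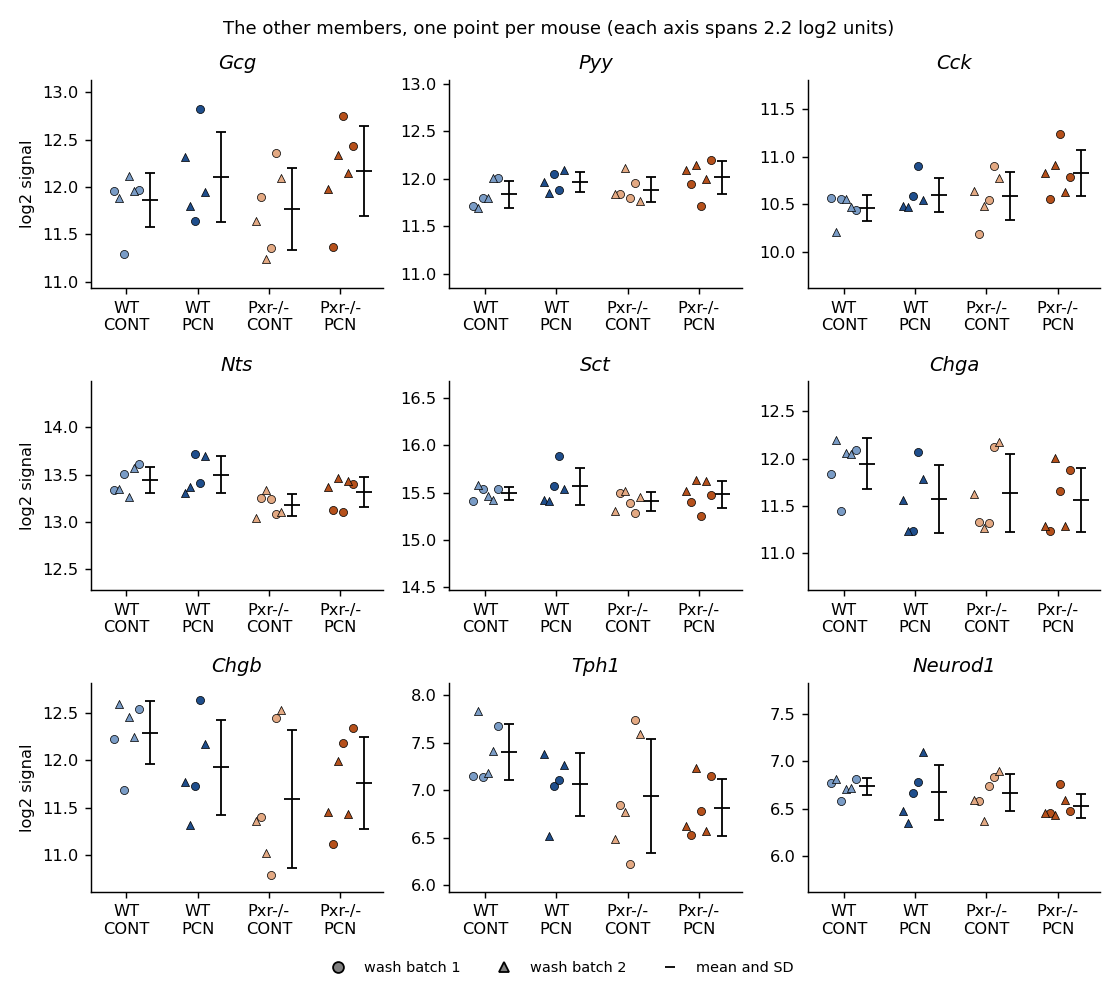
Log2 signal (y axis) of the 9 other genes in each of the 23 mice by group (x axis), with circles for wash batch 1, triangles for wash batch 2 and a bar for the mean ± SD; each panel spans the same number of log2 units. *Sct*, *Pyy* and *Nts* are tight within groups, and *Chgb* runs from 10.79 to 12.54 within *Pxr*-/- CONT alone.

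The granule proteins and the serotonin enzyme varied more from mouse to mouse than *Sct*, *Pyy* and *Nts*. This does not hold for all hormones, since *Gcg* had SDs of 0.29, 0.47, 0.43 and 0.47, above those of *Chga* in each group. *Chga* and *Chgb* encode chromogranins A and B, acidic proteins that pack hormones into granules. *Chga* averaged 11.95 ± 0.27 in WT CONT, 11.58 ± 0.36 in WT PCN, 11.64 ± 0.41 in *Pxr*-/- CONT and 11.56 ± 0.34 in *Pxr*-/- PCN. With PCN it differed by -0.37 (95% interval -0.79 to 0.04) in WT mice and -0.08 (95% interval -0.47 to 0.32) in *Pxr*-/- mice. *Chgb* differed by -0.36 (95% interval -0.99 to 0.27) and 0.16 (95% interval -0.43 to 0.76). Leaving out both WT PCN mice with high B cell markers, as given above, brought the WT estimates to -0.15 for *Chga* and -0.09 for *Chgb*.

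The spread of *Chgb* was widest in *Pxr*-/- CONT, where 4 mice read 10.79, 11.03, 11.36 and 11.40 and the other two read 12.44 and 12.54. The same mice, replicates 5 and 6, were also the highest of that group for *Chga* (12.13 and 12.17), *Tph1* (7.74 and 7.59) and *Gcg* (12.36 and 12.09). Against WT CONT, at 12.29 ± 0.33, the *Chgb* mean of 11.59 ± 0.73 was lower by a fitted difference of -0.70 (95% interval -1.30 to -0.10, adjusted p = 0.453, limma). Leaving out single arrays moved that difference between -0.90 and -0.52.

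*Tph1*, which encodes the enzyme that starts serotonin synthesis in enterochromaffin cells, was read by 3 probes, of which 1 was not above background on any array. The brightest probe averaged 7.40 ± 0.30 in WT CONT, 7.06 ± 0.33 in WT PCN, 6.94 ± 0.60 in *Pxr*-/- CONT and 6.81 ± 0.30 in *Pxr*-/- PCN. With PCN it differed by -0.34 (95% interval -0.82 to 0.14) and -0.13 (95% interval -0.58 to 0.33). All 5 WT PCN mice lay below the WT CONT mean by this probe and by the second probe, at -0.19 (95% interval -0.45 to 0.06). *Neurod1*, a transcription factor of the endocrine lineage, differed by -0.06 (95% interval -0.29 to 0.17) and -0.14 (95% interval -0.36 to 0.08).

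Between the genotypes without PCN, 3 of the 9 genes had an unadjusted p under 0.05 in limma, namely *Nts*, *Chgb* and *Tph1* (-0.46, 95% interval -0.92 to -0.00, adjusted p = 0.561), all lower in *Pxr*-/- mice. Over all genes this share was 10.3%, and 0.214% of genes passed the call. Under PCN none of the 9 had an unadjusted p under 0.05, with differences from -0.24 for *Tph1* to 0.22 for *Cck*, where 8.51% of all genes did and 0.542% passed the call. For the difference between the PCN responses of the genotypes, the 9 genes ran from -0.08 for *Neurod1* to 0.52 for *Chgb*, with an adjusted p of 0.999 for each. The highest upper limit of these intervals was 1.39, for *Chgb*. By this measure 5.06% of all genes had an unadjusted p under 0.05 and 0.118% passed the call.

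Mice of the same group differed together in some of these genes and not in others. Group and wash batch were first taken out of each gene, and the remainders were then correlated over the 23 arrays for all 45 pairs of the 10 genes, with p from 100000 permutations and Benjamini-Hochberg adjustment over the 45. The adjusted threshold was passed by 12 pairs, all positive. *Chga* and *Chgb* had Pearson r = 0.94 and Spearman rho = 0.93 (permutation p = 1e-05 for each, the smallest that these permutations can give, adjusted to 0.00015 for r and 0.00022 for rho). Leaving out the 2 arrays farthest from the median of *Chga* gave r = 0.92. *Gcg* followed the chromogranins, with r = 0.84 for *Chgb* (rho = 0.86) and 0.80 for *Chga* (rho = 0.82). *Tph1* did so too, with r = 0.82 for *Chgb* (rho = 0.81) and 0.77 for *Chga* (rho = 0.74).

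*Pyy* and *Nts* formed a separate pair. Their remainders had r = 0.73 and rho = 0.71 (permutation p adjusted to 0.00067 and 0.0015), with r = 0.68 without the 2 farthest arrays and 0.71 and 0.77 within the wash batches. *Gcg*, a hormone of the same L cells by textbook account, had r = -0.17 with *Pyy* and -0.29 with *Nts*, neither past the threshold (adjusted permutation p = 0.708 and 0.425), and -0.27 and -0.51 without the 2 farthest arrays. *Cck* passed with *Gcg* (r = 0.57), *Chgb* (0.56) and *Chga* (0.55), although by rho the last pair did not pass (rho = 0.46, adjusted permutation p = 0.098). *Neurod1* passed with *Chgb* (r = 0.61) and *Chga* (0.57), and *Gcg* with *Tph1* (0.58). *Sct* passed with no other gene by r. By rho it passed with *Nts* (rho = 0.61, adjusted permutation p = 0.0125, r = 0.45).

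**Figure D4:**
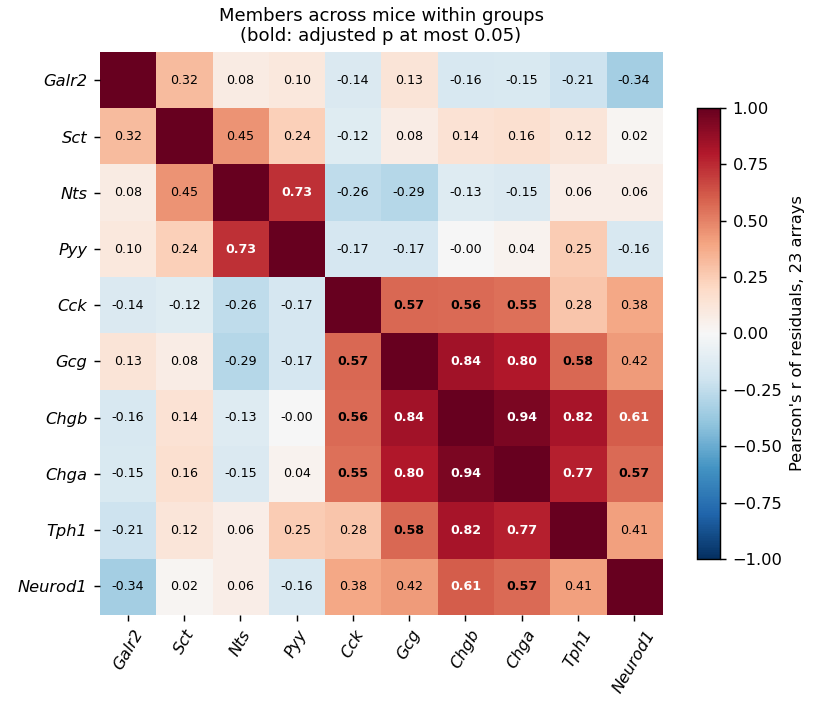
Pearson's r between the 10 genes over 23 arrays after group and wash batch were taken out (both axes list the genes; colour and number give r; bold numbers passed an adjusted p of 0.05). The block of *Gcg*, *Chgb*, *Chga* and *Tph1* holds values from 0.58 to 0.94, *Pyy* and *Nts* share 0.73, and the *Galr2* row stays between -0.34 and 0.32.

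*Galr2* passed with none of the 9 other genes (r from -0.34 for *Neurod1* to 0.32 for *Sct*, lowest adjusted permutation p = 0.293). With *Chgb* its r was 0.41 in wash batch 1 and -0.59 in wash batch 2, and with *Chga* 0.46 and -0.56. Over 17709 genes, the remainders most like those of *Galr2* belonged to *Megf6* (r = 0.89, rho = 0.90), *Lin7b* (r = 0.86, rho = 0.82) and *Kcnh2* (r = 0.85, rho = 0.87). As the 3 highest of so many, these r values are a description. *Lin7b*, which encodes a scaffold protein of cell junctions and synapses, was lower with PCN by 0.88 on the log2 scale in WT mice (log2 difference -0.88, SE 0.20, adjusted p = 0.0235, limma), and it passed the call there. In *Pxr*-/- mice its difference was -0.63 (SE 0.19, adjusted p = 0.0614). *Kcnh2*, a potassium channel gene, differed by -0.43 (adjusted p = 0.0971) and -0.25 (adjusted p = 0.233), and *Megf6* by 0.04 and 0.14. For *Sct*, the 3 most alike were *Jak1* (r = 0.87), *Pianp* (r = 0.86) and *Ric3* (r = 0.85).

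The same remainders were set against the mean of 10 lists of marker genes for other cells and gut regions, 100 relations in all. None passed an adjusted p of 0.05 (lowest adjusted permutation p = 0.168). For *Galr2* the highest r was with 12 enteric neuron genes (r = 0.56, rho = 0.55, permutation p = 0.00454, adjusted 0.168, and 0.47 without the 2 farthest arrays), followed by smooth muscle genes (r = 0.50, adjusted permutation p = 0.369). *Sct* also stood highest with the enteric neuron genes (r = 0.61, rho = 0.48, adjusted permutation p = 0.168, and 0.38 without the 2 farthest arrays). With PCN, none of the 12 enteric neuron genes passed the call in either genotype, where 1.05% and 1.47% of all genes did. Their medians were -0.06 in WT mice and -0.08 in *Pxr*-/- mice, beside medians over all genes of -0.02 and 0.00.

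Among the other gut peptides, 13 genes were tested and *Cartpt* rose with PCN in both genotypes, where 0.931% of all genes rose in WT mice and 1.2% in *Pxr*-/- mice. *Calca* passed the call too, but its probe entered the test only through the PCN groups, so it is described and not counted as a call. *Cartpt* encodes the CART peptide, a neuropeptide found in enteric neurons and some endocrine cells. Its lowest, median and highest log2 values were 7.42, 7.79 and 8.01 in WT CONT, and the WT PCN mice read 8.21, 8.38, 8.55, 8.57 and 9.21. In *Pxr*-/- mice they were 7.69, 8.01 and 8.41 in CONT and 8.61, 8.93 and 9.57 in PCN. In neither genotype did the groups overlap. Such groups, in either direction, were found for 2.46% of probes in WT mice and 2.28% in *Pxr*-/- mice. The increase was 0.82 (SE 0.18, adjusted p = 0.0176, limma) in WT mice and 0.99 (SE 0.17, adjusted p = 0.00303) in *Pxr*-/- mice. The summed mast cell signal given above also did not overlap between PCN and CONT in either genotype, and its part in this difference was not tested. Leaving out WT PCN replicate 2 ended the WT call (0.68, adjusted p = 0.0638), as did leaving out both mice with high B cell markers (0.74, adjusted p = 0.0625). The WT call was also lost with the replicate number as a block in the fit.

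*Calca* encodes the calcitonin gene-related peptide, a transmitter of sensory and enteric neurons, and calcitonin. Its main probe was above background on all PCN arrays but on only 2 of 6 control arrays of either genotype, so its control level is near the limit of measurement. The means were 5.25 ± 0.36, 6.49 ± 0.55, 5.14 ± 0.22 and 6.17 ± 0.55 in the usual order of groups. The fitted difference of 1.22 (SE 0.25) in WT mice moved between 0.80 and 2.97 with the processing, and that of 1.03 (SE 0.23) in *Pxr*-/- mice between 0.60 and 2.46. A second *Calca* probe, above background on 1, 1, 3 and 3 arrays of these groups, differed by -0.02 and 0.20 and did not pass. The difference between genotypes in the response was not called for *Cartpt* (0.17, adjusted p = 0.999) or *Calca* (-0.18, adjusted p = 0.999). At an unadjusted p under 0.05 in limma, 4 of the 13 genes were higher in *Pxr*-/- mice, *Calca* among them, and 2 were lower. Over all genes this share was 23.2%, and with *Calca* included the count is a description only. The lower ones were *Adm*, which encodes adrenomedullin, at -0.92 (SE 0.32, adjusted p = 0.114) and *Tac1*, the precursor of substance P, at -0.54 (SE 0.21, adjusted p = 0.165), and neither passed the call. *Adm* differed by 0.38 (SE 0.34) in WT mice, and the difference between its responses was -1.30 (SE 0.47, adjusted p = 0.946).

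**Figure D5:**
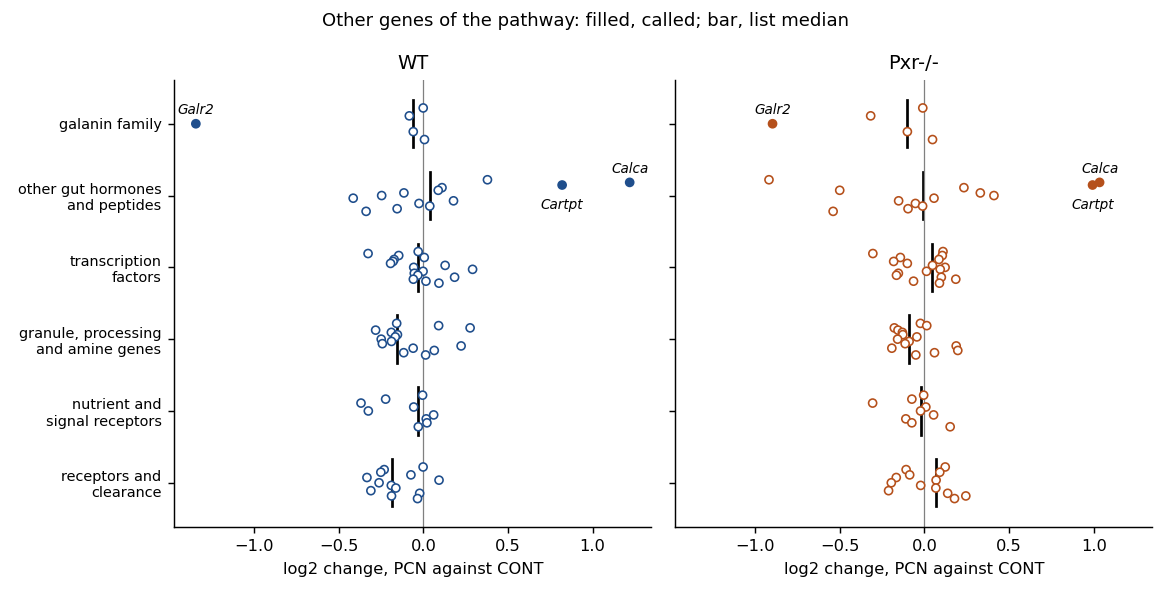
Fitted log2 change between PCN and CONT (x axis) of each tested gene in 6 lists of galanin, hormone and enteroendocrine genes (y axis), in WT mice on the left and *Pxr*-/- mice on the right; filled points passed the call and black bars are list medians. The filled points are *Galr2* at -1.34 and -0.90, *Cartpt* and *Calca*. For *Galr2*, chosen by this response, and *Calca*, whose probe entered the test only through the PCN groups, the fill is a description without a test. The open point of *Adm* lies at -0.92 in *Pxr*-/- mice, and the list medians lie between -0.19 and 0.07.

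The remaining lists held no called gene for PCN, where 1.05% of all genes passed in WT mice and 1.47% in *Pxr*-/- mice. At such shares, few or no calls are to be expected in lists of this length. None of 17 tested transcription factors of the endocrine lineage passed in either genotype (medians -0.03 and 0.05). *Atoh1*, which commits cells to the secretory lineage, had the largest difference in both genotypes, at -0.33 in WT mice (adjusted p = 0.603) and -0.30 in *Pxr*-/- mice (adjusted p = 0.433). Next came *Mnx1* in WT mice (0.29) and *Prox1* in *Pxr*-/- mice (0.19). None of 15 granule, prohormone processing and amine genes passed (medians -0.15 and -0.09). Among them *Pam*, the peptide-amidating enzyme, differed by -0.28 and *Gch1*, which makes the cofactor for serotonin synthesis, by 0.28 in WT mice. In *Pxr*-/- mice *Slc18a1*, a vesicular monoamine transporter, differed by 0.20 and *Scgn*, a calcium-binding protein, by -0.19.

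Of 14 nutrient and signal receptors of enteroendocrine cells, 9 were tested and none passed, beside the shares of all genes given above. *Ffar2*, the receptor for short-chain fatty acids, came nearest, at -0.37 (SE 0.10, adjusted p = 0.0748) in WT mice and -0.31 (SE 0.09, adjusted p = 0.0712) in *Pxr*-/- mice. *Ffar4*, a receptor for long-chain fatty acids, differed by -0.32 in WT mice, and *Trpa1*, an irritant-sensing channel, by 0.15 in *Pxr*-/- mice. Of 17 receptors and clearance proteins of the hormones, 13 were tested and none passed. In WT mice 12 of the 13 had estimates below 0 (median -0.19, beside -0.02 over all genes), with *Htr4* at -0.33 and the neurotensin receptor *Ntsr1* at -0.31, and 2 had an unadjusted p under 0.05, where 14.9% of all genes did. In *Pxr*-/- mice 6 of the 13 were below 0 (median 0.07, beside 0.00 over all genes), with *Slc6a4*, the serotonin transporter, at 0.24 and *Ntsr1* at -0.21.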

How the data were processed

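Total RNA (150 ng) from the ileum of each mouse was labelled with Cy3 and hybridised to a single-colour Agilent mouse array with 62976 spots. Per the file headers and labels, the authors scanned and extracted spot intensities with Agilent Feature Extraction (version 10.10.1.1). They also deposited a table of normalized log2 values for 37161 probes, in which each array has the same median, 8.02. Its values kept the rank order of the scanner intensities (Spearman rho 0.9995 to 0.9997 per array), which by itself cannot show the scale. The table was read as log2, and its *Galr2* group means, given above, lay close to those from log2 scanner intensities. No centring of genes was seen, and the values served as an alternative.

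From the deposited intensities, the log2 median signal was taken, control and outlier spots were left out, spots of a probe were averaged, and arrays were quantile normalized (limma 3.58.1, R 4.3.3). Probes well above background on at least 50% of the arrays of a group were tested, 37591 of 56605. Among them 34 of the values were missing and were left out of the fit. The model held the 4 groups and the wash batch given in the labels (2 batches, each with all groups). Benjamini-Hochberg adjustment ran over all tested probes. A call needed both an adjusted p no higher than 0.05 and a change above 1.5-fold. Intervals are 95% and come from the moderated fit. The number of arrays limits the precision. Symbols came from the RefSeq table of GRCm38.p6 by accession for 32994 probes and by name for 10224, with older names for 520, and coordinates from the scanner files (mm9).

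Relations between genes used residuals after group and wash batch, with 100000 permutations (Python 3.11.15, SciPy 1.17.1). The fit was checked on simulated data. The genes named are all members by every probe, every galanin family gene, each list's called genes or else its 2 largest changes in the comparison described, the 3 genes most like *Galr2* and *Sct*, and genes within 100 kb of *Galr2*. The members and the lists were chosen with earlier results of these data known.

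Alternatives were median centring, 75th percentile scaling of the processed signal, the deposited table, normexp background correction, no filter or a stricter filter on dim probes, no wash batch, the slide as a random block (8 slides), a replicate block, array weights, only the groups compared, no fold threshold, each array left out in turn, each wash batch alone and other probes. Leaving out both WT PCN arrays with high B cell markers was added after the data were seen.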

Additional observations from a re-analysis of the deposited data

Results flagged for a closer look

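Over the 10 genes and 4 groups, 40 sets of values were examined for a single mouse far from the rest of its group (Dixon's test), and 3 stood out. Chance alone flags about 1 in 20 such sets. *Gcg* was low in WT CONT replicate 3, at 11.30 against 11.88 for the nearest mouse, a gap of 0.715 of the group's range. *Cck* was low in WT CONT replicate 2, at 10.21 against 10.43, a gap of 0.635 of the range. *Cck* was high in WT PCN replicate 4, at 10.90 against 10.58, a gap of 0.734 of the range. Without any of these mice *Gcg* and *Cck* still missed the threshold for PCN.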

How the results depend on the processing

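The difference of *Galr2* with PCN kept its direction throughout: -1.59 to -1.18 in WT mice and -1.04 to -0.79 in *Pxr*-/- mice over 12 processing alternatives, and -1.44 to -1.22 and -1.03 to -0.82 with single arrays left out. The difference between these responses ran from 0.40 to 0.55 with the processing and from 0.31 to 0.54 with single arrays left out, with 0.11 and 0.72 within the wash batches. None of the other 9 genes came past the threshold under any alternative that had a test. The within-batch values had none.

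Counts of genes with a called probe moved more. They were 205 for PCN in WT mice, 289 in *Pxr*-/- mice, 23 for the difference, 41 between genotypes without PCN and 103 under PCN. For PCN in *Pxr*-/- mice the 75th percentile gave 412 and array weights 208. With no fold threshold the counts were 387 for PCN in WT mice, 1094 for PCN in *Pxr*-/- mice, 62 between genotypes without PCN and 174 under PCN. Between genotypes without PCN, array weights gave 159 genes and the fit on only the groups compared 113. With both WT PCN arrays high in B cell markers left out, chosen after seeing the data, 13 genes differed in response. Of 75 tested probes within 500 kb of *Galr2*, 1 was called for PCN in *Pxr*-/- mice, near the 0.939% called over all tested probes. With single arrays left out the counts ran from 160 to 224 for PCN in WT mice, 189 to 345 in *Pxr*-/- mice, 15 to 27 for the difference, 26 to 88 without PCN and 85 to 145 under PCN. The cause was not tested.

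Signs turned only for estimates that missed the threshold. Turns within single wash batches are not listed here. The second *Gcg* probe gave -0.14 for PCN in *Pxr*-/- mice, -0.19 for the difference, 0.15 without PCN and -0.0434 under PCN. Without both arrays high in B cell markers, *Gcg* gave -0.11 for the difference and -0.21 under PCN, *Pyy* -0.0029 and *Sct* -0.0435 for the difference, and *Neurod1* 0.0536 for PCN in WT mice. The *Pyy* difference was -0.0041 under median centring, -0.0196 with the 75th percentile, -0.00197 without the wash batch and -0.00304 with the slide as a block. The *Sct* difference was -0.0407 under median centring, -0.045 with the 75th percentile and -0.00746 with normexp. *Nts* for PCN in WT mice was -0.0027 under median centring. With array weights *Chga* gave 0.0233 for PCN in *Pxr*-/- mice and 0.13 under PCN.

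With single arrays left out, PCN in *Pxr*-/- mice ran from -0.17 to 0.0316 for *Chga*, -0.0123 to 0.37 for *Chgb* and -0.27 to 0.0456 for *Tph1*. PCN in WT mice ran from -0.17 to 0.0168 for *Neurod1*, -0.0034 to 0.11 for *Nts* and -0.0222 to 0.11 for *Sct*. The difference ran from -0.000675 to 0.17 for *Cck*, -0.16 to 0.0279 for *Neurod1*, -0.0383 to 0.0579 for *Pyy* and -0.0353 to 0.097 for *Sct*. Between genotypes, *Gcg* ran from -0.22 to 0.00954 without PCN, and under PCN *Chga* ran from -0.10 to 0.14, *Chgb* from -0.32 to 0.0195, *Gcg* from -0.0804 to 0.26 and *Sct* from -0.12 to 0.0106.

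Samples of different groups shared only a replicate number: the median correlation of their deviations was -0.03 over 33 pairs with the same number. With the replicate number as a block, *Galr2* differed by -1.36 in WT mice and -0.90 in *Pxr*-/- mice, the *Pyy* difference was -0.0165, the *Sct* difference -0.00062, and *Cartpt* in WT mice had an adjusted p of 0.0573.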
